A study of Oryza sativa with 4 samples.

Results

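The rice MADS box genes of the SEPALLATA (SEP) and AGL6 types were followed in young panicles of 2 cultivars. They were MADS1, MADS5, MADS7, MADS8, MADS6 and MADS17. The probe sets were found by exact gene symbol or synonym, without use of any measured value. The genes themselves were chosen with earlier results of these data known. Each gene had 1 probe set annotated to it alone, so the group held 6 of the 57258 probe sets that were not controls and 6 of the 17905 genes that the annotation named singly. All 6 probe sets passed the filter on low signals described below.

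The samples were panicle primordia of 2 rice cultivars of the Indica group at the stage that the labels number 0, Pusa 1266 and Pusa Basmati 1, with 2 replicates per cultivar and 1 Affymetrix array per replicate. The labels give no treatment. In the characteristics Pusa 1266 has a high and Pusa Basmati 1 a low grain number per panicle, while the sample titles say low for both, so the groups are named here by cultivar. The question put to these genes is how their transcripts differ between the cultivars. How many plants made up a sample is not stated, so the p-values measure only the spread between these samples.

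MADS box proteins are transcription factors that bind DNA as parts of larger complexes, and the SEP and AGL6 proteins are the members that hold these complexes together with the proteins of petals, stamens and carpels. In rice MADS1 (LHS1) acts in the identity of lemma and palea and in the floret meristem, and MADS5 is a close relative of the same grass branch, often called LOFSEP, to which MADS34 also belongs. MADS7 (also MADS45) and MADS8 (also MADS24) are the counterparts of Arabidopsis SEP3 and act together in the inner floral organs. MADS6 (MFO1) is the main rice AGL6 gene, with roles in palea identity and in ending the floral meristem, and MADS17 is its close paralog.

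The genes lay on 6 different chromosomes in a Japonica rice reference, and coordinates are left out because no source used here names the build of the array. MADS1 (LOC4332059) was on chromosome 3, MADS5 (LOC4340218) on chromosome 6, MADS7 (LOC4346134) on chromosome 8, MADS8 (LOC4347517) on chromosome 9, MADS6 (LOC4330328) on chromosome 2 and MADS17 (LOC4336762) on chromosome 4. The probe sets of MADS7 and MADS17 are of the Affymetrix kind that matches several transcripts of 1 gene. With 1 probe set per gene, whether a probe matches both cultivars equally well was not tested.

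The arrays did not share 1 level. The mean signal after 2% of the probe sets was taken off each end ran from 78.0 to 155 over the 4 arrays, a factor of 1.98, and was lower in both Pusa 1266 arrays. The signals were therefore brought to 1 distribution by quantile normalization of log2(signal + 16), and limma was run on the 30029 probe sets with a signal above the array median on 2 or more arrays. The ratio of 3' to 5' signal of the GAPDH control, a sign of RNA integrity, was 19.4 ± 1.28 in Pusa 1266 and 8.03 ± 0.669 in Pusa Basmati 1 (SD, n = 2 each), and those of 4 other control designs were between 1.24 and 3.25 times as high in Pusa 1266. This ratio moved with cultivar in every comparison below, and its part in the results was not tested.

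All 6 genes gave clear signal in both cultivars, and after normalization they differed little between them. MADS5 was 1.16-fold higher in Pusa 1266 and was the 1 gene of the 6 with an adjusted p below the threshold of 0.05 in limma (p adjusted by Benjamini-Hochberg over all tested probe sets). Of all tested probe sets 53.4% passed, 28.2% as higher and 25.2% as lower in Pusa 1266. MADS1 lay to the other side, 1.11-fold lower in Pusa 1266, and did not pass. The 95% intervals of the fold for the 6 genes all lay between 0.818 and 1.30. The median log2 difference of the genes, Pusa 1266 minus Pusa Basmati 1, was 0.038, against 0.034 for all tested probe sets. The median size of the difference without its sign was 0.087 for the 6 genes and 0.37 for all tested probe sets.

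MADS1 had deposited signals of 816.5 and 933.3 in Pusa 1266, against 1589 and 1673 in Pusa Basmati 1. Both Pusa 1266 signals were lower, as were those of the arrays as a whole. Within its array the MADS1 probe set was at or above 96.7% and 96.8% of all probe sets in Pusa 1266 and 97.4% and 97.0% in Pusa Basmati 1. On the normalized log2 scale it averaged 10.17 ± 0.011 in Pusa 1266 and 10.33 ± 0.082 in Pusa Basmati 1 (SD, n = 2 each), and the cultivars did not overlap. The log2 difference was −0.15 ± 0.058 (SE), with a 95% interval from −0.29 to −0.019 and an adjusted p in limma of 0.0551. The gene thus stood just outside the threshold. With 1 replicate left out the difference ran from −0.21 (without replicate 2 of Pusa Basmati 1) to −0.097 (without replicate 1 of Pusa Basmati 1). It was called lower with the filter at the 75th percentile (adjusted p in limma = 0.0411), where 73.3% of the 15525 probe sets were called in either direction. After cyclic loess it was also called lower (adjusted p in limma = 0.00525), beside 27.8% of all tested probe sets called lower. The same held under median centring, the deposited scaling and the hybridization controls, beside 45.5%, 59.8% and 74.7% of all tested probe sets. With the trimmed mean the adjusted p in limma was 0.231, the highest over the alternatives.

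MADS5 had signals of 613.6 and 664.4 in Pusa 1266, against 928.8 and 939.5 in Pusa Basmati 1. Its probe set was at or above 95.2% and 94.9% of the probe sets of the Pusa 1266 arrays, against 94.4% and 93.6% of those of the Pusa Basmati 1 arrays. The normalized level was 9.73 ± 0.047 in Pusa 1266 and 9.51 ± 0.11 in Pusa Basmati 1 (SD, n = 2 each), again without overlap. MADS5 rose by 0.21 ± 0.070 on the log2 scale (SE, adjusted p in limma = 0.0343), with a 95% interval from 0.050 to 0.38. The call was lost without replicate 1 of Pusa 1266 (0.18, adjusted p = 0.149), without replicate 2 of Pusa 1266 (0.25, 0.0631) and without replicate 2 of Pusa Basmati 1 (0.13, 0.163), and it held without replicate 1 of Pusa Basmati 1 (0.29, 0.0109), all in limma. The 2 LOFSEP genes of the group therefore lay at its opposite ends.

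The SEP3-type genes gave the smallest differences of the group after quantile normalization, an order that did not hold with the trimmed mean, cyclic loess or the deposited scaling. MADS7 had signals of 683.2 and 779.2 in Pusa 1266, against 1168 and 1348 in Pusa Basmati 1, and normalized levels of 9.92 ± 0.014 in Pusa 1266 and 9.94 ± 0.016 in Pusa Basmati 1 (SD, n = 2 each). Its log2 difference was −0.020 ± 0.053 (SE), with an interval from −0.14 to 0.10. The normalized values of its 4 arrays ran only from 9.91 to 9.95 and overlapped between the cultivars.

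MADS8, its partner, had signals of 567.2 and 725.7 in Pusa 1266, against 1006 and 1172 in Pusa Basmati 1. The normalized levels were 9.74 ± 0.12 in Pusa 1266 and 9.73 ± 0.032 in Pusa Basmati 1 (SD, n = 2 each). The Pusa 1266 replicates lay on either side of both Pusa Basmati 1 replicates, and the distance of 0.17 between them was the widest of any replicates of the 6 genes. The difference was 0.012 ± 0.070 (SE), with an interval from −0.15 to 0.17, and its sign turned with the replicate left out (−0.071 without replicate 2 of Pusa 1266). Of all tested probe sets 2.98% differed less than MADS7 did and 1.77% less than MADS8 did.

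The AGL6 genes lay slightly above 0. MADS6 had signals of 642.7 and 704.9 in Pusa 1266, against 1074 and 1112 in Pusa Basmati 1. The normalized values overlapped, and the log2 difference was 0.065 ± 0.064 (SE), with an interval from −0.084 to 0.21 and an adjusted p in limma of 0.433.

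MADS17 was the dimmest of the probe sets, with 152.8 and 176.0 in Pusa 1266, against 260.9 and 305.2 in Pusa Basmati 1, at or above 82.6% to 83.7% of the probe sets of an array. Signals of different probe sets are not levels that can be set against each other, so this gives no order of abundance between the genes. Its normalized values were higher in both Pusa 1266 arrays without overlap, at 7.91 ± 0.014 in Pusa 1266 against 7.80 ± 0.044 in Pusa Basmati 1 (SD, n = 2 each). The difference of 0.11 ± 0.080 (SE, interval from −0.076 to 0.29, adjusted p in limma = 0.286) did not pass. In all, the normalized values of the cultivars did not overlap for 3 of the 6 genes (MADS1, MADS5 and MADS17), whereas this held for 76.3% of all tested probe sets.

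**Figure D1:**
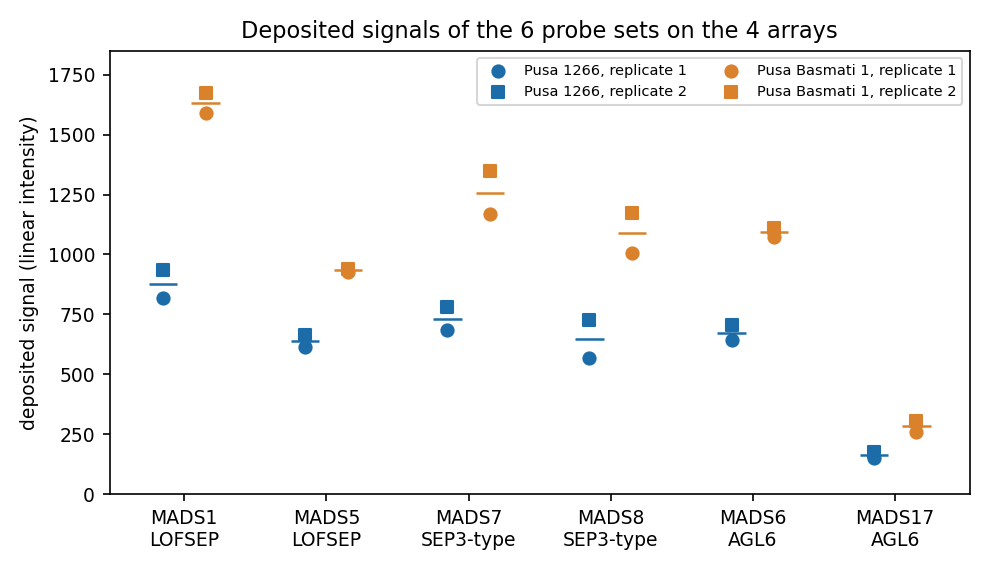
Deposited signal (linear intensity) of the probe set of each gene on the 4 arrays, with circles for replicate 1, squares for replicate 2 and bars for the mean of each cultivar. Both Pusa 1266 signals lie below both Pusa Basmati 1 signals for all 6 genes, as they do for 72.0% of all tested probe sets.

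**Figure D2:**
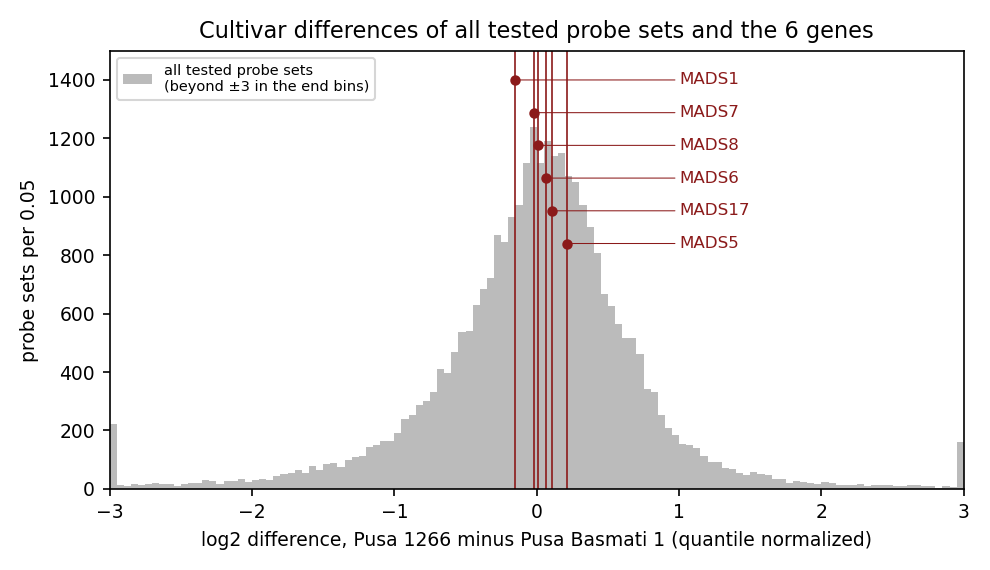
Number of tested probe sets by log2 difference, Pusa 1266 minus Pusa Basmati 1, after quantile normalization, with the 6 genes as lines. The genes lie between −0.15 (MADS1) and 0.21 (MADS5), near the middle of the distribution of all probe sets.

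The direction of the group as a whole rested on how the arrays were brought to 1 level. Summed over the 6 probe sets the deposited signal was 3476 and 3984 in Pusa 1266, against 6028 and 6551 in Pusa Basmati 1. With the deposited scaling all 6 genes were called lower in Pusa 1266, as were 59.8% of all tested probe sets, and the log2 differences ran from −0.89 for MADS1 to −0.54 for MADS5. The median of the 6 genes was then −0.74 and that of all tested probe sets −0.55, and MADS5 was the gene that lay above it. With each array centred on its median 5 of 6 were called lower, MADS5 at −0.30 not among them, beside 45.5% of all tested probe sets. The array medians lay between 6.8 and 11.5, far below the signals of these genes.

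Scaling the arrays to 1 trimmed mean, as GCOS can do, gave values close to those after quantile normalization. MADS5 was again the 1 gene called, at 0.25 ± 0.072 (SE, adjusted p in limma = 0.0164), beside 28.2% of all tested probe sets called higher, and the median of the 6 genes was 0.036. After cyclic loess, an alternative chosen after the data were seen, MADS1 was the 1 gene called, lower by 0.26 on the log2 scale (adjusted p in limma = 0.00525), beside 27.8% of all tested probe sets called lower, and MADS5 stood at 0.13 (0.154). The bacterial and phage controls that are added to the hybridization in fixed amount were not dimmer in Pusa 1266. Over their 9 probe sets the geometric mean was 499 and 606 in Pusa 1266, against 384 and 495 in Pusa Basmati 1. With the arrays scaled to these controls, also chosen afterwards, all 6 genes were called lower, from −1.22 for MADS1 to −0.87 for MADS5, beside 74.7% of all tested probe sets.

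**Figure D3:**
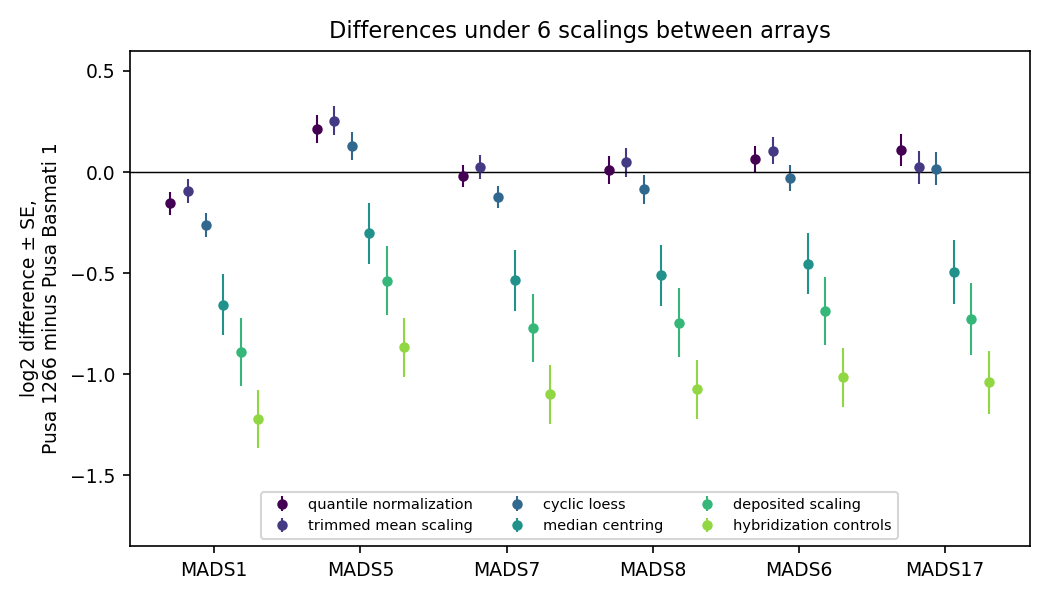
Log2 difference ± SE, Pusa 1266 minus Pusa Basmati 1 (n = 2 each), of each gene under 6 ways of scaling the arrays. The 6 genes move down together from values near 0 to values near −1, while MADS1 stays lowest and MADS5 highest under each scaling.

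What did not depend on a common factor per array was the shift of the genes against each other. For this the log2 signal of each gene was taken relative to the mean of the 6 genes on the same array and centred over the 4 arrays. MADS1 then stood at −0.075 and −0.081 in Pusa 1266, against 0.11 and 0.049 in Pusa Basmati 1, a difference of −0.16. MADS5 stood at 0.14 and 0.057 in Pusa 1266, against −0.041 and −0.16 in Pusa Basmati 1, a difference of 0.20. These were the 2 genes whose cultivars did not overlap on this scale, where 76.3% of all tested probe sets with signal on every array showed no overlap. The relative differences of MADS7, MADS8, MADS6 and MADS17 were −0.037, −0.014, 0.046 and −0.037, and their arrays overlapped.

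**Figure D4:**
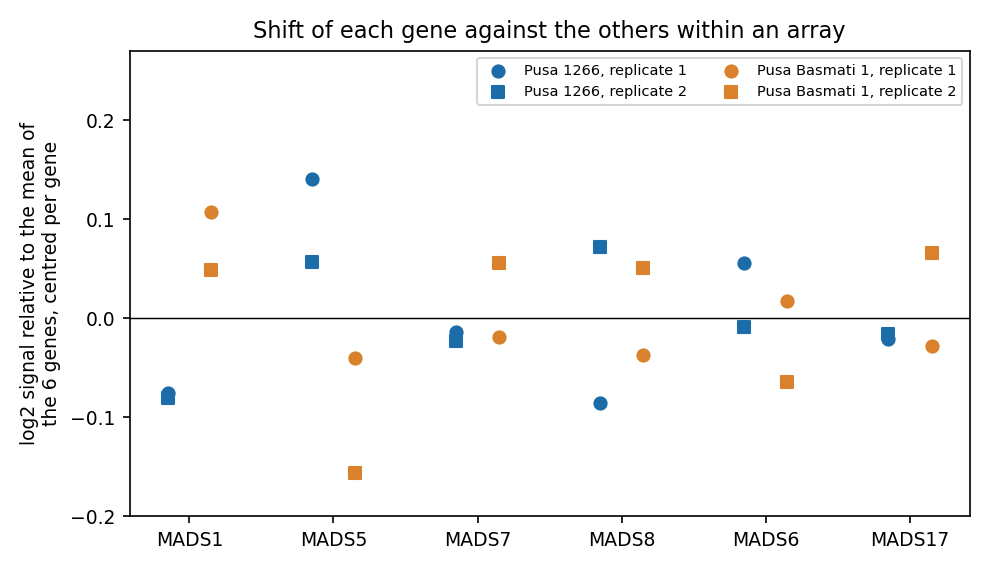
Log2 deposited signal of each gene relative to the mean of the 6 genes on the same array, centred on 0 for each gene, with circles for replicate 1 and squares for replicate 2. MADS1 is lower and MADS5 higher in both Pusa 1266 arrays, and the other 4 genes overlap between the cultivars.

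Taken gene by gene, the ratio of MADS1 to MADS5 was 1.28-fold lower in Pusa 1266. Centred over the arrays, its log2 value was −0.22 and −0.14 in Pusa 1266, against 0.15 and 0.21 in Pusa Basmati 1. Of the 15 possible ratios between the 6 genes, 7 did not overlap between the cultivars, and every one of these 7 held MADS1 or MADS5. The share for ratios of other probe sets was not computed. Relative to the mean of the 6 genes, 76.3% of all tested probe sets with signal on every array did not overlap. The ratios share genes, and MADS1 and MADS5 are the genes at the ends of the group, so the 7 are not separate results. The 6 ratios among MADS7, MADS8, MADS6 and MADS17 all overlapped. The ratio of MADS7 to MADS8, the SEP3-type genes, differed by −0.023 and that of MADS6 to MADS17, the AGL6 genes, by 0.084 on the log2 scale. The values are a description, since 2 arrays against 2 cannot give a two-sided exact permutation p below 0.333. Over the 16 settings computed, the difference of MADS5 exceeded that of MADS1 by between 0.33 and 0.41. MADS1 had the lowest difference of the group in all 16 and MADS5 the highest in 15 of them. The settings reuse the same arrays, so these counts are not repeated tests of the order. Changes of the filter, the variance trend and the replicate block cannot alter the differences, which stayed at −0.15 for MADS1 and 0.21 for MADS5. Those settings are among the 16 and add nothing to the counts. Median centring shifts all genes of an array alike. Its distance of 0.35 between the highest and the lowest gene therefore equals that of the deposited scaling by construction.

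Among the MADS genes that act beside this group, 7 of the 14 tested were called higher in Pusa 1266 and 2 lower, with a median log2 difference of 0.25. The median turned to −0.43 with the deposited scaling, where that of all tested probe sets was −0.55. Of all tested genes, each represented by 1 probe set, 34.7% were called higher and 26.3% lower. MADS34 (PAP2), the remaining LOFSEP gene, had signals of 146.4 and 181.3 in Pusa 1266, against 494.4 and 595.7 in Pusa Basmati 1. It fell by 0.83 ± 0.078 on the log2 scale (SE, adjusted p in limma = 6.42e-05) and lay below 0 under each of the 6 scalings. The 3 LOFSEP genes thus had values of −0.83, −0.15 and 0.21.

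Of the genes of the APETALA1 and FRUITFULL type, which give meristems their floral fate, MADS18 rose by 0.44 ± 0.055 and MADS15 by 0.15 ± 0.051 (SE), while MADS14 at −0.12 did not pass. The 3 other tested probe sets of MADS14 were called lower, and of the 3 others of MADS15 1 was called higher and 1 lower. MADS20 of the same type rose by 2.99, a size set by the added constant, since its signals were 93.1 and 98.5 in Pusa 1266, against 6.2 and 0.4 in Pusa Basmati 1. The sign of these small differences turned with the deposited scaling (−0.29 for MADS18 and −0.35 for MADS15), as it did for MADS5. The call of MADS15 was lost without replicate 1 of Pusa 1266 (0.13), without replicate 2 of Pusa 1266 (0.16) and without replicate 2 of Pusa Basmati 1 (0.094).

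The genes of petals and stamens (lodicules and stamens in rice) were MADS2 and MADS4, which rose by 0.27 ± 0.065 and 0.48 ± 0.11, and MADS16 (SPW1), which stood at 0.052 ± 0.053 and did not pass. MADS58, of the stamen and carpel type, rose by 0.34 ± 0.096, and MADS3 of that type stood at 0.25 with signals between 18.9 and 29.8. MADS13, an ovule gene, was dim, with 4.4 and 5.5 in Pusa 1266, against 15.2 and 13.0 in Pusa Basmati 1. All of these lay below 0 with the deposited scaling. Of the genes related to the repressor SVP, MADS22 rose by 0.62 ± 0.054, MADS55 fell by 0.40 ± 0.14 (adjusted p in limma = 0.0480) and MADS47 at 0.26 did not pass. MADS22 stood at −0.11 with the deposited scaling. MADS21 and MADS29 did not pass the filter. Several of these calls were lost when 1 array was left out. MADS2 was lost without replicate 1 of Pusa 1266 (0.23). MADS58 was lost without replicate 1 (0.336) or replicate 2 (0.342) of Pusa 1266 or replicate 1 of Pusa Basmati 1 (0.22). MADS55 was lost without replicate 1 (−0.41) or replicate 2 (−0.39) of Pusa 1266 or replicate 2 of Pusa Basmati 1 (−0.17).

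Among 9 other MADS genes 3 were tested. MADS56, a flowering regulator, rose by 2.37 ± 0.12 (1.59 with an added constant of 64), and MADS50 at 0.27 and MADS26 at 0.031 did not pass. Without replicate 1 of Pusa 1266 MADS50 was called higher (0.34).

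**Figure D5:**
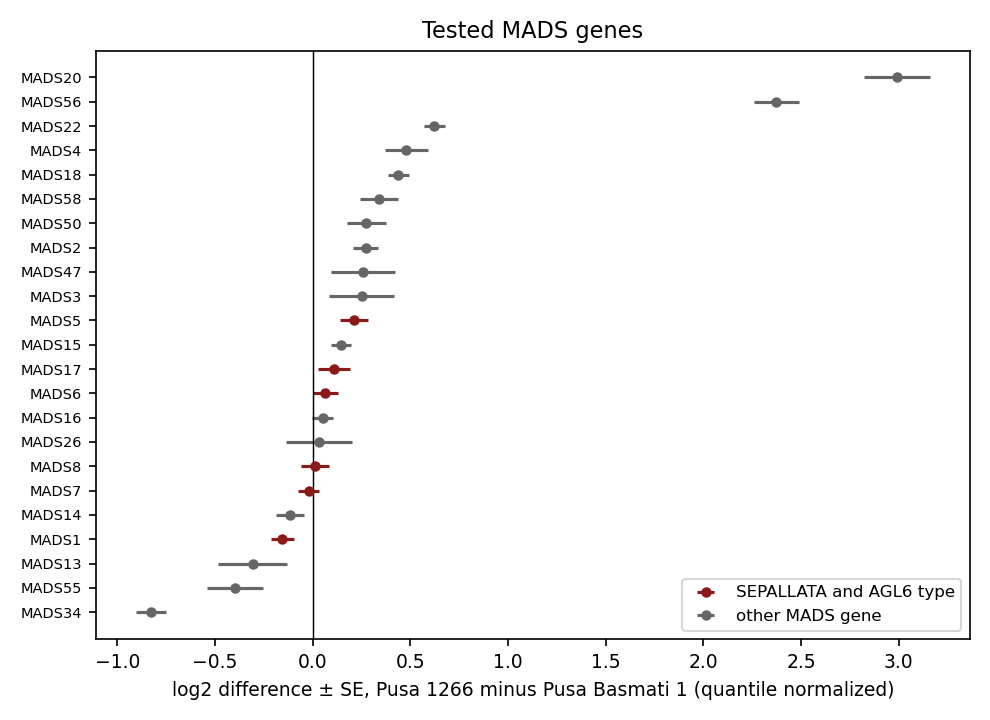
Log2 difference ± SE, Pusa 1266 minus Pusa Basmati 1 (n = 2 each), of every tested MADS gene after quantile normalization, with 1 probe set per gene. The SEP and AGL6 type genes lie between −0.15 and 0.21, while the other MADS genes run from −0.83 (MADS34) to 2.99 (MADS20).

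Regulators of the spikelet and floret meristem were matched for 10 of 19 planned symbols, of which 7 were tested. Of these 6 were called higher in Pusa 1266 and none lower, with a median of 0.62, against the 34.7% of all tested genes called higher and 26.3% called lower. With the deposited scaling the median was 0.091. They were RFL (2.62), the rice counterpart of LEAFY, LAX1 (1.57), needed for axillary meristems, the meristem gene OSH1 (0.72), EG2 (0.62), a JAZ repressor that acts in the spikelet, SPL14 (0.58), which promotes panicle branching, and FON1 (0.47), which restrains the floral meristem. The deposited scaling put RFL at 1.88, LAX1 at 0.77, OSH1 at 0.12, EG2 at 0.091, SPL14 at −0.14 and FON1 at −0.35. With the hybridization controls OSH1 and EG2 turned to −0.21 and −0.24. The gene that did not pass was DL (DROOPING LEAF), of carpel identity, at 0.35 ± 0.14 (SE, adjusted p in limma = 0.0605), and it was called higher without replicate 2 of Pusa 1266 (0.48) and without replicate 2 of Pusa Basmati 1 (0.52).

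DL is also the gene next to MADS1 on chromosome 3 in the reference annotation, with no other gene between them. DL had signals of 125.4 and 120.4 in Pusa 1266, against 146.0 and 212.0 in Pusa Basmati 1. Over the 12 nearest genes with a probe set on either side of the 6 genes, 10 were tested, 5 were called higher, 1 was called lower and 4 did not pass, beside 34.7% of all tested genes called higher and 26.3% called lower. With the deposited scaling 3 of the 5 called higher turned below 0 (−0.28, −0.26 and −0.33), and the other 2 were at 0.045 and 0.044. Beside MADS7 stood SPL16, a gene of grain shape, which rose by 0.56 ± 0.097 (SE) and stood at −0.26 with the deposited scaling. Near MADS6, with 1 annotated gene without a probe set between them, stood LOC4330329. Its signals were 20.8 and 27.3 in Pusa 1266, against 755.5 and 836.2 in Pusa Basmati 1. LOC4330329 fell by 3.67 ± 0.093 (SE, adjusted p in limma = 7.55e-08) and stood at −4.34 with the deposited scaling. MADS6 itself, with a difference of 0.065, did not pass. The median size of the difference was 0.51 for the 10 neighbours and 0.37 for all tested genes.

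Likeness of pattern was measured as the root mean square distance between the normalized log2 values of the 4 arrays, each gene centred on its own mean, over 2127 named genes. Nearest to MADS1 were TIM9 (0.00855) and AGPR (0.00956), and nearest to MADS5 were OsC3H54 (0.0183) and RPS26, listed as S31 (0.0186). Nearest to MADS7 were NEK6 (0.00174) and PP2A2 (0.0110), and nearest to MADS8 were KCH1, listed as O12 (0.0147), and CRSH1 (0.0173). GLN1-3 (0.0177) and PIP2-6 (0.0185) were nearest to MADS6, and CPK19 (0.00279) and CML7 (0.0114) to MADS17. With 4 arrays many genes share such flat patterns, and between 41 and 136 named genes lay within 0.05 of each of the 6. Within the group the nearest to MADS7 was MADS8 and the reverse, at 0.0546. This was not particular to the pair, since MADS7 was also the nearest member to MADS17 (0.0674) and MADS1 (0.0835). The 136 named genes within 0.05 of MADS7 all lay closer to it than MADS8 did.

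The labelled tissue was checked with marker lists. Inflorescence meristem markers had a probe set for 6 of 7 genes, with summed signals of 6247 and 6908 in Pusa 1266, against 6036 and 6474 in Pusa Basmati 1. OSH1, RFL, LAX1, MADS15 and MADS34 gave signal in both cultivars, and FZP, of the spikelet meristem, was near 0 at 0.7 and 5.5 in Pusa 1266, against 0.7 and 1.3 in Pusa Basmati 1. Markers of floral organs had a probe set for 7 of 7 genes, with sums of 1925 and 2120 in Pusa 1266, against 2807 and 3304 in Pusa Basmati 1. The sums given here are of deposited signals, and the Pusa 1266 arrays were dimmer as a whole. After normalization 3 of the 7 floral organ genes were called higher in Pusa 1266 and none lower, with a median log2 difference of 0.27. With the deposited scaling that median was −0.50. Of the 5 tested meristem markers 4 were called higher and 1 lower. Of all tested genes 34.7% were called higher and 26.3% lower. Of the green tissue list only CAB2R, of the light harvesting antenna, had a probe set, with 784.7 and 781.7 in Pusa 1266, against 2641 and 3091 in Pusa Basmati 1, and it fell by 1.19 ± 0.065 (SE). The anther and meiosis list had a probe set for 4 of 5 genes, with sums of 540.8 and 583.9 in Pusa 1266, against 760.5 and 933.0 in Pusa Basmati 1, and TDR, of the tapetum, was near 0 at 3.3 or less. The lower sums came from MEL1, a germ cell gene, with 314.7 and 294.5 in Pusa 1266, against 647.2 and 795.8 in Pusa Basmati 1. After normalization MEL1 fell by 0.40 ± 0.10 (SE, adjusted p in limma = 0.0113). Its call was lost without replicate 2 of Pusa 1266 (−0.25) and without replicate 2 of Pusa Basmati 1 (−0.33). The meiosis genes PAIR2 and PAIR1 went the other way and rose by 1.86 ± 0.11 and 0.91 ± 0.16 (SE), with 1.08 and 0.32 under the deposited scaling. Whether the mixture of tissues or of stages took part in the differences of the SEP and AGL6 genes was not tested, and in whole panicles fewer cells of a type and less RNA per cell cannot be told apart.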

How the data were processed

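RNA from panicle primordia of 2 cultivars was measured on 4 Affymetrix arrays, from 8 ug of total RNA each, per the labels' protocols. The deposited table holds a linear signal intensity for every probe set on every array. The submitters' processing notes name GCOS 1.2, and how background and scaling were handled is not given in the sources used here. Arrays give no counts, and their number limits the precision.

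The samples were grouped by the cultivar in their titles. Pusa Basmati 1 was subtracted from Pusa 1266 on quantile-normalized log2(signal + 16), and the differences were tested in limma 3.58.1 (R 4.3.3) by lmFit and eBayes, with the variance trend on. Benjamini-Hochberg adjustment ran over 30029 probe sets, with a threshold of 0.05. The 123 control probe sets were left out. The steps were tested on simulated data in which few probe sets changed, evenly up and down. That run did not test the choice of scaling where many probe sets differ. Tables and plots were made with pandas 2.3.3, matplotlib 3.10.9 and numpy 2.4.6 in Python 3.11.15.

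Genes came from the array annotation, in which 22436 probe sets had 1 gene, 95 had several and 34727 had none, and their names from the reference assembly ASM3414082v1. A gene with several probe sets was represented by the brightest tested one over the 4 arrays. Named were all 6 members, every tested MADS partner, listed meristem regulators, chromosomal neighbours and the 2 named genes nearest in pattern to each member. IDS1 and ASP1 were left out because the annotation gives these symbols to other genes. The members and lists were chosen with earlier results of these data known. Alternatives covered scaling, the added constant (1 and 64), the filter, the trend, the replicate number and each replicate left out.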

Additional observations from a re-analysis of the deposited data

How the results depend on the processing

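Of the 6 genes, 1 was called after quantile normalization. The count was 6 under the deposited scaling, 6 with scaling to the hybridization controls and 5 under median centring, all of these lower in Pusa 1266. In limma it was 0 without the filter (2 at an unadjusted p below 0.05), where 13320 of 57258 probe sets were called. Without the variance trend it was 0 (0 unadjusted), where 14705 of 30029 were called. With the filter at the 75th percentile it was 2 (MADS5 higher and MADS1 lower), where 11386 of 15525 probe sets, or 73.3%, were called. The median log2 difference of the genes, 0.038, became −0.74 under the deposited scaling, −0.50 under median centring, −0.056 with cyclic loess and −1.06 with the hybridization controls, and lay between 0.018 and 0.068 with a replicate left out. With the deposited scaling MADS5, MADS8, MADS6 and MADS17 turned to −0.54, −0.74, −0.69 and −0.73. With median centring they were −0.30, −0.51, −0.45 and −0.49, and with the hybridization controls −0.87, −1.07, −1.02 and −1.04. MADS7 turned to 0.025 with the trimmed mean, and MADS8 and MADS6 to −0.084 and −0.028 with cyclic loess. MADS8 also turned without replicate 2 of Pusa 1266 (−0.071) and without replicate 1 of Pusa Basmati 1 (−0.010), within a range up to 0.095 with a replicate left out. Pseudocounts of 1 and 64 changed no call of the 6 genes. Cyclic loess and the hybridization controls were added after seeing the data. Over all tested probe sets 16046 were called, 8472 higher and 7574 lower in Pusa 1266. These were 1646 and 17956 under the deposited scaling, 1100 and 22438 with the hybridization controls, and 2906 and 13660 under median centring. The cause of these shifts was not tested.

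Samples with the same replicate number were not treated as pairs, since the differences between replicates 1 and 2 of the 2 cultivars correlated across tested probe sets with r = 0.0181. With the replicate number as a block MADS5 was again the 1 gene called (adjusted p in limma = 0.0181), and 16358 probe sets were called in all. With 2 arrays per cultivar the precision is limited, and the 95% intervals of the fold reached from 0.818 to 1.30 over the 6 genes.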
